A study of Mus musculus with 33 samples.

Results

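Potassium channel genes were followed in the quadriceps of mice given a single dose of a glucocorticoid. They were taken as all genes of the count files whose symbol starts with Kcn, Kcnf1 excepted, with a mean of at least 0.3 CPM (read counts scaled to a common library total) over the 33 libraries. This kept 45 of 94 Kcn genes among 23420 genes in all, and each of the 45 also passed the filter on low counts and was tested. By structure they were 18 voltage-gated subunits, 8 calcium-activated or sodium-activated subunits and their relatives, 5 inward rectifiers, 6 tandem-pore (K2P) channels and 7 accessory subunits. The last member, Kcnq1ot1, is a long non-coding RNA that runs against Kcnq1 and makes no channel, and is described apart. The members just inside the limit were Kcne3 (mean 0.311 CPM), Kcnt1 (0.348 CPM) and Kcnn4 (0.366 CPM), and those just outside were Kcnj3 (0.282 CPM), Kcnd1 (0.275 CPM) and Kcnip2 (0.274 CPM).

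Adult male C57BL6 animals of 2 genotypes were compared: wild type (WT) and Actn3 null (KO). Actn3 encodes alpha-actinin-3, which anchors actin filaments at the Z-disc of fast fibres. Dexamethasone sodium phosphate, a synthetic glucocorticoid, was injected once into the peritoneum at 20 mg/kg, with saline as the control, and whole quadriceps was taken 3 h or 24 h later. Each of the 4 dexamethasone groups (WT or KO, 3 h or 24 h) held 5 libraries, and of the saline groups WT at 24 h held 4 and the other 3 groups held 3 each. Whether libraries are separate animals is not stated outright in the labels, and the p-values then measure only the spread between libraries, which may be technical.

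Potassium channels let potassium leave or enter a cell and so hold and restore its membrane potential. In skeletal muscle, inward rectifiers of the Kir2 type steady the resting potential, delayed rectifiers of the Kv type end the action potential, and ATP-sensitive channels open when energy runs low. A pore is built of several alpha subunits, which may be of mixed kinds, and beta, Kcne or KChIP subunits change its gating or its delivery to the membrane. In bulk RNA, fewer cells of a type and less RNA per cell cannot be told apart.

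Actn3 averaged between 7871 and 8725 CPM in the WT groups and between 46.8 and 66.4 CPM in the KO groups. Library depth ran from 19.7 to 42.8 M gene counts. The 8 listed markers of skeletal muscle fibres summed to between 110600 and 189200 CPM in each library, and none was at 0. Names of 5 libraries start with ML1716 and of the other 28 with ML1715. They are KO dexamethasone 3 h replicate 5, KO dexamethasone 24 h replicates 4 and 5, WT saline 24 h replicate 4 and WT dexamethasone 24 h replicate 5, and the labels do not say what the number means.

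Divided by exon length, the most abundant member was Kcna7 (97.4 CPM per kb of exon, mean over all libraries), which encodes the voltage-gated subunit Kv1.7. Next came Kcnj12 (47.4 CPM per kb), the Kir2.2 inward rectifier, and Kcnj11 (44.6 CPM per kb), the Kir6.2 pore of the ATP-sensitive channel. Kcnc4 (21.5), Kcng4 (19.3), Kcnj2 (14.3) and Kcnc1 (11.6 CPM per kb) followed. The scarcest were Kcnd3 at 0.049 and Kcnt1 at 0.037 CPM per kb. The K2P channels and the accessory subunits lay low in this order, the highest of each being Kcnk1 (1.05 CPM per kb) and Kcnab1 (0.62 CPM per kb). Over the 33 libraries Kcna7 ran from 129 to 283 CPM, Kcnj11 from 116 to 241 CPM and Kcnn1, the SK1 subunit, from 17.0 to 27.5 CPM. Neighbours in this order overlapped in their ranges between libraries, as Kcnj12 and Kcnj11 did.

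**Figure D1:**
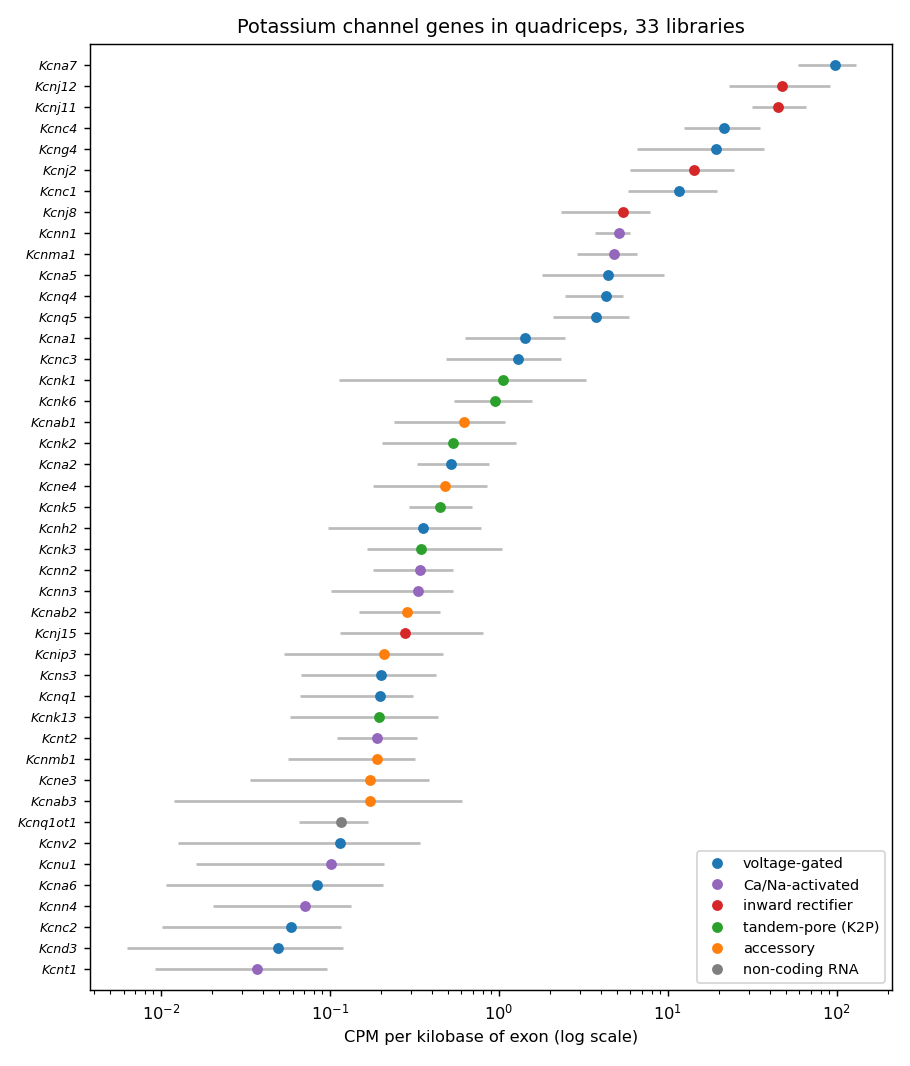
Level of 44 members as CPM per kilobase of exon on a log axis, with the dot at the mean of 33 libraries, the line from the lowest to the highest library, and colours for the channel classes. Kcna7, Kcnj12 and Kcnj11 stand at the top and Kcnd3 and Kcnt1 at the bottom.

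At 3 h after dexamethasone in WT, 15 of the 45 members were called (edgeR quasi-likelihood test, Benjamini-Hochberg adjusted p below 0.05 over 13955 genes), 9 higher and 6 lower than in saline, where 14.8% of all genes were called, 6.76% higher and 8.09% lower. In KO 11 were called, 8 higher and 3 lower, beside 17.4% of all genes, 8.91% higher and 8.48% lower. The members' median log2 fold change was 0.11 in WT and 0.01 in KO, and that of all genes was 0.00 and 0.01. Both genotypes shared 9 calls, which is 9 of 15 in WT and 9 of 11 in KO, all in the same direction. The share of all genes called in both genotypes was not computed, so this overlap cannot be read as particular to these genes. Without WT saline 3 h replicate 2 the WT count was 9 instead of 15. Markers of other cells also moved at 3 h. Of 5 satellite cell markers, 3 were lower in each genotype, with medians of -0.82 in WT and -1.12 in KO in log2. Their summed level was 111.5 to 124.6 CPM in WT saline against 90.35 to 98.99 CPM after dexamethasone, and 106.3 to 112.3 against 82.77 to 99.12 CPM in KO, so the groups did not overlap. Sums of 6 adipocyte markers overlapped in WT and did not in KO (299.6 to 385.9 CPM in saline, 386.8 to 599.8 CPM after dexamethasone), with 1 marker lower in WT and 1 higher in KO. Of 8 muscle fibre markers none was called in either genotype. Of 7 tested macrophage markers, 1 was higher in WT and 2 in KO. Of 8 fibroblast markers, 1 was lower in each genotype and 1 higher in KO. Of 8 Schwann cell and nerve markers, 1 was lower in each genotype. Lymphocyte sums overlapped in WT (6.669 to 8.693 CPM in saline, 5.11 to 6.715 CPM after dexamethasone). They did not in KO (6.709 to 7.674 against 5.171 to 6.616 CPM). Endothelial and smooth muscle markers are given beside Kcnj8, and the part of any of these in the channel values was not tested.

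The inward rectifiers moved in both directions, with 1 of 5 higher and 2 of 5 lower in each genotype at 3 h. Kcnj12 (chr11:61022564-61071131, GRCm38, plus strand) rose about 3-fold. Its level was 91.3, 79.5 and 63.4 CPM in the WT saline libraries at 3 h and 220, 219, 230, 236 and 241 CPM after dexamethasone. The KO libraries gave 91.4, 89.9 and 76.8 CPM in saline and 178, 193, 183, 250 and 239 CPM after dexamethasone. Saline and dexamethasone libraries did not overlap in either genotype. The log2 fold change was 1.55 ± 0.139 in WT (2.94-fold; edgeR adjusted p = 2.16e-10) and 1.28 ± 0.137 in KO (2.43-fold; edgeR adjusted p = 1.01e-08), where ± gives the standard error here and for all log2 values that follow.

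Kcnj2 (chr11:111066164-111076821, GRCm38, plus strand), which encodes Kir2.1, a partner of Kir2.2 in mixed channels, went down at the same time. WT saline libraries held 93.5, 94.8 and 68.9 CPM and WT dexamethasone libraries 44.5, 32.6, 39.4, 41.6 and 47.9 CPM. In KO the level was 91.6, 81.1 and 73.4 CPM in saline and 51.2, 35.7, 37.9, 50.02 and 39.6 CPM after dexamethasone. The groups did not overlap in either genotype, and Kcnj2 fell by 1.06 ± 0.17 on the log2 scale in WT (edgeR adjusted p = 1.81e-05) and by 0.94 ± 0.17 in KO (edgeR adjusted p = 0.000108). The ratio of Kcnj12 to Kcnj2, each per kb of exon and set up after their values were seen, was 1.66 to 1.93 in the WT saline libraries at 3 h and 9.77 to 13.3 after dexamethasone. In KO it was 1.98 to 2.20 in saline and 6.88 to 11.9 after dexamethasone. Their summed level per kb was 35.7 to 50.4 CPM per kb in WT saline and 85.7 to 96.3 after dexamethasone, and 41.4 to 50.1 against 73.6 to 100.2 in KO. At 24 h the ratio lay between 1.21 and 2.78 in all 4 groups, which overlapped.

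Kcnj8 (chr6:142564837-142571614, GRCm38, minus strand) encodes Kir6.1, the pore of the vascular form of the ATP-sensitive channel. It was lower after dexamethasone at 3 h. The WT level was 14.4, 17.2 and 14.9 CPM in saline and 7.40, 9.05, 7.05, 8.34 and 8.73 CPM after dexamethasone. KO libraries held 15.2, 16.7 and 13.6 CPM in saline and 8.18, 8.49, 5.92, 9.82 and 9.04 CPM after dexamethasone. No dexamethasone library reached a saline library, and the gene fell by 0.93 ± 0.132 in log2 in WT (edgeR adjusted p = 2.08e-06) and by 0.86 ± 0.131 in KO (edgeR adjusted p = 6.43e-06). Endothelial markers moved with it: of 10, 5 were lower and 1 higher in WT and 4 lower and 2 higher in KO. Their summed level was 470.6 to 576 CPM in WT saline and 368.7 to 445 CPM after dexamethasone, and 467.1 to 569.7 against 360.0 to 443.8 CPM in KO. Of 8 smooth muscle and pericyte markers, 2 were lower in each genotype and 1 was higher in KO, with summed levels of 431 to 550.8 CPM in WT saline against 364.5 to 447.7 CPM and, in KO, 474 to 520.3 against 390.5 to 557.9 CPM. No marker of either list was at 0, and their part in the fall of Kcnj8 was not tested.

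The muscle pore of the ATP-sensitive channel, Kcnj11, did not pass the test at 3 h, with a log2 fold change of 0.34 ± 0.151 in WT and 0.11 ± 0.15 in KO (edgeR adjusted p = 0.138 and 0.657). Its regulatory partner Abcc9, the SUR2 subunit, was not called either (log2 -0.10 ± 0.111 and -0.21 ± 0.111; edgeR adjusted p = 0.613 and 0.194). Abcc8, the SUR1 subunit best known from pancreatic beta cells, rose from 1.58 to 1.98 CPM in WT saline to 5.40 to 9.17 CPM, and from 2.24 to 2.97 to 4.73 to 10.1 CPM in KO. Its log2 fold change was 1.98 ± 0.301 in WT and 1.19 ± 0.279 in KO (edgeR adjusted p = 7.85e-06 and 0.00233). At 24 h it was 0.77 ± 0.251 in WT (edgeR adjusted p = 0.0367) and 0.84 ± 0.283 in KO (edgeR adjusted p = 0.0512). The fifth inward rectifier, Kcnj15 (Kir4.2), was not called at 3 h in WT (log2 -0.63 ± 0.338) or in KO (0.28 ± 0.373).

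Among the voltage-gated subunits at 3 h, 4 of 18 were called in each genotype. The clearest was Kcna5 (chr6:126532551-126535412, GRCm38, minus strand), which encodes Kv1.5, a fast delayed rectifier of heart and vessels that is also made in skeletal muscle. It stood at 7.36, 7.43 and 10.8 CPM in WT saline and at 24.1, 27.3, 22.5, 23.7 and 22.4 CPM after dexamethasone. In KO it stood at 9.74, 7.45 and 7.43 CPM in saline and 23.1, 25.3, 21.9, 21.8 and 18.9 CPM after dexamethasone. The groups were far apart in both genotypes, with log2 fold changes of 1.49 ± 0.168 and 1.44 ± 0.166 (edgeR adjusted p = 2.48e-08 and 4.64e-08).

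Kcna6 lies near Kcna5 on chromosome 6, as Kcna1 does, and the 3 genes moved differently. Kcna6 fell by 1.48 ± 0.399 in WT and by 1.42 ± 0.408 in KO on the log2 scale (edgeR adjusted p = 0.00809 and 0.0125), and leaving out WT saline 3 h replicate 2 (0.199) or KO saline 3 h replicate 1 (0.0851) lost its call in that genotype. It rested on 13 to 29 counts per WT saline library and 6 to 14 per WT dexamethasone library. A gene on the opposite strand overlaps 39.6% of its exon bases, and these unstranded libraries do not tell the strands apart. Whether reads of that overlap were counted for Kcna6 or left out as ambiguous is not given in the sources used here. Kcna1 was not called (log2 0.04 ± 0.203 in WT and 0.04 ± 0.201 in KO).

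Kcnd3, the Kv4.3 subunit of transient outward current, rose from a very low level. WT libraries held 0.241, 0.253 and 0.419 CPM in saline and 0.870, 1.03, 0.591, 0.878 and 0.888 CPM after dexamethasone, or 6 to 11 and 17 to 35 counts. In KO they held 0.389, 0.352 and 0.441 CPM in saline and 0.772, 1.15, 1.02, 0.789 and 0.705 CPM after dexamethasone. Neither pair of groups overlapped, and the log2 fold changes were 1.48 ± 0.345 and 1.15 ± 0.317 (edgeR adjusted p = 0.002 and 0.00891). Leaving out KO saline 3 h replicate 2 lost the KO call (adjusted p = 0.06). The silent subunits Kcns3 and Kcnv2, which form channels only with other Kv subunits, were called in 1 genotype each, Kcns3 lower in WT (log2 -1.21 ± 0.321) and Kcnv2 higher in KO (1.82 ± 0.516). Both had been picked here after their values were seen, and both calls were lost without 1 saline library (WT saline 3 h replicate 3, adjusted p = 0.0593, and KO saline 3 h replicate 2, 0.117).

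The K2P channels carry background leak current, and 3 of 6 were higher and 1 lower in WT at 3 h, with 2 higher and none lower in KO. Kcnk1, the TWIK-1 channel, was at 0.895, 0.844 and 0.877 CPM in WT saline and at 2.18, 6.22, 3.09, 1.98 and 7.11 CPM after dexamethasone. KO libraries held 0.569, 0.703 and 0.851 CPM in saline and 3.09, 5.59, 4.05, 7.28 and 3.62 CPM after dexamethasone. All dexamethasone libraries lay above all saline libraries but differed widely among themselves, and the log2 fold changes were 2.24 ± 0.47 in WT and 2.74 ± 0.473 in KO (edgeR adjusted p = 0.000756 and 6.87e-05). Another gene on the opposite strand overlaps 8.01% of the exon bases of Kcnk1.

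Kcnk3, the acid-sensitive TASK-1 channel, was lower in WT, where it had 3.85, 1.81 and 4.16 CPM in saline and 1.38, 1.15, 0.660, 0.941 and 0.810 CPM after dexamethasone without overlap. In KO it stood at 1.77, 1.12 and 1.42 CPM in saline and at 1.60, 1.12, 1.02, 1.26 and 0.980 CPM after dexamethasone, which overlapped. It fell by 1.74 ± 0.258 in log2 in WT (edgeR adjusted p = 4.38e-06), and its log2 fold change in KO was -0.26 ± 0.272 (edgeR adjusted p = 0.561). The difference between genotypes, 1.48 ± 0.379 in log2, did not pass over all genes (edgeR adjusted p = 0.572, unadjusted p = 0.000426). Kcnk6 and Kcnk2 in WT and Kcnk13 in KO were the other K2P calls, at log2 0.56 ± 0.183, 0.98 ± 0.297 and 1.499 ± 0.42. Leaving out single libraries lost the call of Kcnk6 in 4 of 8 cases, of Kcnk2 in 4 and of Kcnk13 in 2, at adjusted p between 0.0517 and 0.19. For Kcnk6 these were WT saline 3 h replicates 1 and 2 and WT dexamethasone 3 h replicates 2 and 3, for Kcnk2 the 3 WT saline libraries and WT dexamethasone replicate 1, and for Kcnk13 KO saline 3 h replicates 2 and 3.

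The largest fold change of the 45 members was that of the accessory subunit Kcnab3, a beta subunit that binds Kv1 channels inside the cell. It was almost silent in saline, with 0.034, 0.084 and 0.191 CPM in WT and 0.150, 0.096 and 0.158 CPM in KO. After dexamethasone it reached 1.12, 1.68, 1.74, 1.44 and 0.836 CPM in WT and 0.858, 1.56, 1.15, 1.43 and 1.13 CPM in KO. The WT saline libraries held 8 counts in all and the WT dexamethasone libraries 216, a ratio of 12.6 after scaling by library totals, with an exact 95% counting interval of 6.30 to 29.6. In KO 13 and 192 counts gave a ratio of 8.91 with an interval of 5.09 to 17.0. The fitted log2 fold changes were 3.69 ± 0.444 and 3.15 ± 0.405 (edgeR adjusted p = 1.03e-07 and 3.6e-07), and every dexamethasone library lay above every saline library. Kcnab3 met the 0.3 CPM limit only through the dexamethasone libraries at 3 h, the highest other library holding 0.270 CPM (KO dexamethasone 24 h replicate 1). Its place among the members thus rests on the response given here. The neighbouring antisense gene Kcnab3os overlaps 5.13% of the exon bases of Kcnab3.

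Kcnip3, a calcium-binding KChIP partner of Kv4 channels, rose beside Kcnd3. It was at 0.482, 0.549 and 0.686 CPM in WT saline against 1.45, 1.47, 1.15, 1.505 and 0.993 CPM after dexamethasone, and at 0.509, 0.735 and 0.189 CPM in KO saline against 1.60, 1.12, 0.894, 1.20 and 1.65 CPM. Both pairs of groups were apart, with log2 fold changes of 1.19 ± 0.351 and 1.44 ± 0.349 (edgeR adjusted p = 0.016 and 0.00292), and leaving out replicate 1 or 2 of WT saline at 3 h lost the WT call (adjusted p = 0.0648 to 0.0887). Of the 8 calcium-activated members, 2 were called in WT at 3 h and none in KO. In KO 3 of them had an unadjusted p below 0.05, beside 4161 of all 13955 genes. The 2 were Kcnt1 (log2 1.59 ± 0.405), a sodium-activated channel that missed the threshold once WT saline 3 h replicate 2 was left out (adjusted p = 0.0532), and Kcnn3, the SK3 channel (log2 -0.67 ± 0.22). Kcnt1 averaged 0.291 CPM in WT saline and 0.224 CPM in KO saline libraries, below the 0.3 CPM limit. Its place among the members rests on dexamethasone libraries at 3 h, so its rise is tied to the selection. The Kcnn3 call was lost without any of 5 libraries (WT saline 3 h replicates 2 and 3 and WT dexamethasone 3 h replicates 2, 4 and 5; adjusted p = 0.0624 to 0.202).

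**Figure D2:**
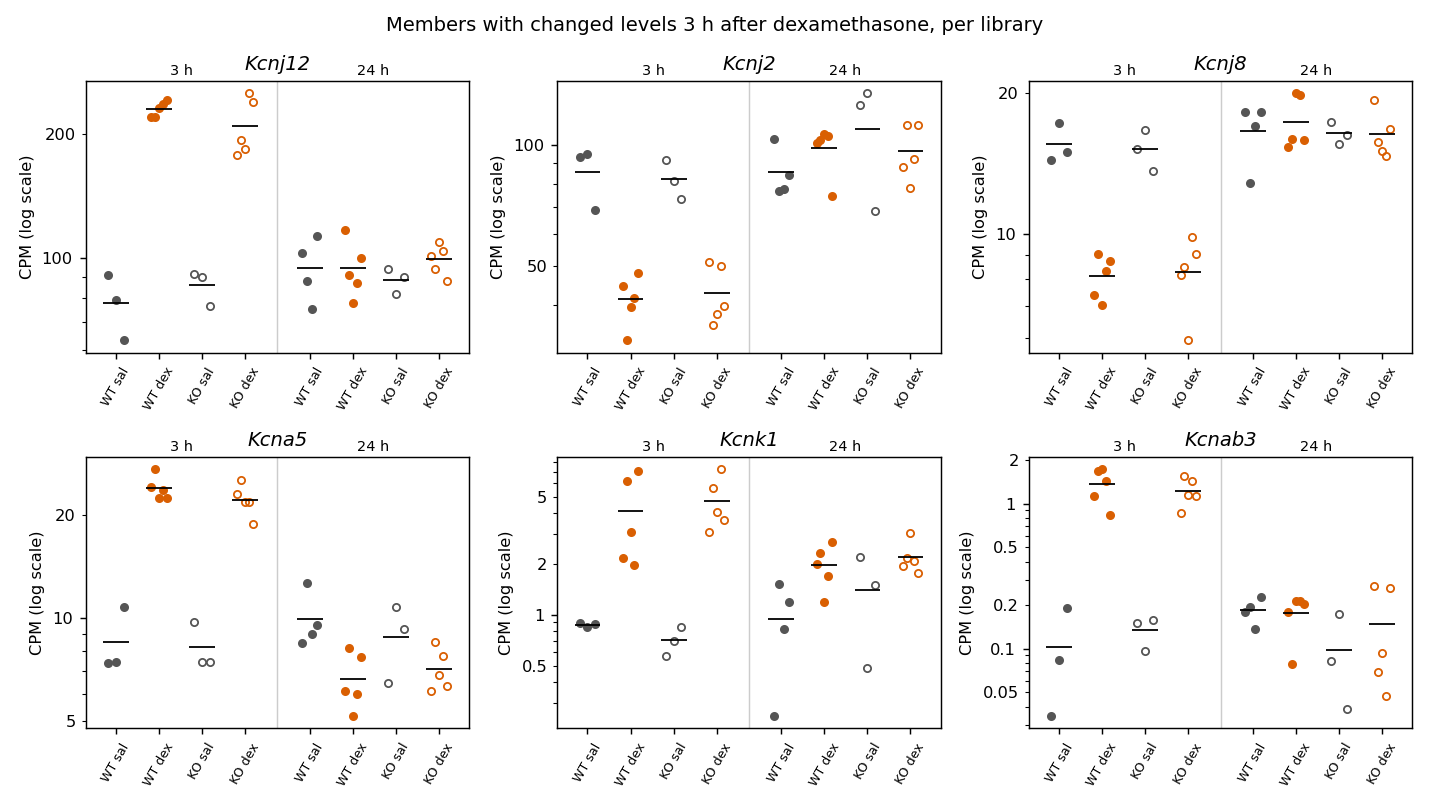
CPM on log axes in each library of the 8 groups for Kcnj12, Kcnj2, Kcnj8, Kcna5, Kcnk1 and Kcnab3. Points are libraries, filled for WT and open for KO, grey for saline and orange for dexamethasone, and the black line is the group mean; at 3 h the dexamethasone libraries stand apart from saline in all 6 panels, and at 24 h the groups of a genotype overlap except for Kcna5 in WT.

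Promoter sequences are shown for the 5 members with the smallest adjusted p after dexamethasone that have an entry in the RefSeq table (GRCm38.p6), since these are the genes whose early response the results turn on. Kcnab3 and Kcnk3 have no entry there. Each sequence runs from 250 bases before to 50 bases after the RefSeq transcription start, 5′ to 3′ on the gene's own strand, and the RefSeq start of Kcnj12 lies inside the GENCODE gene rather than at its first base. The windows of Kcna5 and Kcnk1 lie wholly upstream of their GENCODE genes and hold no base of them. The letters searched, on both strands, were the glucocorticoid receptor palindrome (AGAACA, any 3 bases, TGTTCT), its hexamer AGAACA, and the clock E-box CACGTG. Capitals mark a match.
Kcnj12 (chr11:61065554-61065853, plus strand): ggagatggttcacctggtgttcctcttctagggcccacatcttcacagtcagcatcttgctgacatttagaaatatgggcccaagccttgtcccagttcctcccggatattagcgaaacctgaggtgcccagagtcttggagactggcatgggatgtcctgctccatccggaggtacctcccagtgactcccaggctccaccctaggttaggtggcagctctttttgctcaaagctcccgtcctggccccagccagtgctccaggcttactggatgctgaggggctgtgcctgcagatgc
Kcnj2 (chr11:111065914-111066213, plus strand): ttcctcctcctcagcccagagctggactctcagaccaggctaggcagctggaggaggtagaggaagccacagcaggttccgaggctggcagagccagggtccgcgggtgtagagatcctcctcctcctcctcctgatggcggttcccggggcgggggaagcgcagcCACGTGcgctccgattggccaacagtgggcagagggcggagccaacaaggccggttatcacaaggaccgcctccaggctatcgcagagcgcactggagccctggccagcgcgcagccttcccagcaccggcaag
Kcnj8 (chr6:142571565-142571864, minus strand): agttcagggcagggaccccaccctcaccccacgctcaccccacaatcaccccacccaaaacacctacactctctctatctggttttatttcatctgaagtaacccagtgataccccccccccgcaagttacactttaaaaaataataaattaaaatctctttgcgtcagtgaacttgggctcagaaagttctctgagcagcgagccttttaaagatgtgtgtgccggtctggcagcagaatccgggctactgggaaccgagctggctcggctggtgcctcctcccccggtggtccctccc
Kcna5 (chr6:126535506-126535805, minus strand): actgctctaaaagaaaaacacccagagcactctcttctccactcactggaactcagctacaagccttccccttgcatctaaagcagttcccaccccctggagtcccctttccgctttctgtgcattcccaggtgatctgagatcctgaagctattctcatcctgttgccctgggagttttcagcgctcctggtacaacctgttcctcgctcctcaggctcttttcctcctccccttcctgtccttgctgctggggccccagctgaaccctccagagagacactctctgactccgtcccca
Kcnk1 (chr8:125994852-125995151, plus strand): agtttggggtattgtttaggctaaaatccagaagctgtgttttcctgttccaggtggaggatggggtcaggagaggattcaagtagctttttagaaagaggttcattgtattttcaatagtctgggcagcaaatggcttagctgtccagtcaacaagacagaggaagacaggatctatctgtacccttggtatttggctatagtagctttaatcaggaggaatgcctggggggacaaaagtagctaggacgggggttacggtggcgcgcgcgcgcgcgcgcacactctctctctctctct

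Of these 5 windows, that of Kcnj2 held an E-box and no other match was found. Among all 48 promoters listed for 32 members, the palindrome was in 0, the hexamer in 6 and the E-box in 6. Among all 32851 promoters of the table, the palindrome was in 0.00913%, the hexamer in 18.97% and the E-box in 7.15%.

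By 24 h the calls lay in one direction. In WT 8 of 45 members were lower and 0 higher, beside 13.7% of all genes called, 6.75% higher and 6.92% lower. The 8 include Kcne3, which met the 0.3 CPM limit only through the WT saline libraries at 24 h. In KO 8 were lower and 0 higher, beside 10.7% of all genes, 5.77% higher and 4.97% lower. At an unadjusted p below 0.05, 17 of 45 members passed in WT and 15 in KO, beside 3807 and 3637 of all 13955 genes. The median log2 fold change of the members was -0.25 in WT and -0.19 in KO, and that of all genes -0.01 and 0.00. Both genotypes shared 5 of these calls, 5 of 8 in each, all lower, among them Kcna7, Kcnc4, Kcnd3 and Kcnh2. For all genes this overlap was not computed at 24 h either. Leaving out KO saline 24 h replicate 2 brought the KO count from 8 to 4 and leaving out replicate 3 brought it to 3.

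Voltage-gated subunits made up 7 of the 8 lower members in WT and 7 of 8 in KO, out of 18 in the class. Kcna7, the most abundant member, was at 229, 196, 219 and 203 CPM in WT saline at 24 h and at 129, 145, 134, 145 and 185 CPM after dexamethasone. The KO level was 248, 257 and 280 CPM in saline and 169, 162, 219, 175 and 176 CPM after dexamethasone. Saline and dexamethasone libraries did not overlap in either genotype, and the fall was 0.52 ± 0.0993 in WT and 0.54 ± 0.107 in KO on the log2 scale (edgeR adjusted p = 0.000435 and 0.00103).

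The Kv3 genes Kcnc1 and Kcnc4 make fast delayed rectifiers and a fast inactivating channel. Kcnc4 (Kv3.4) held 76.5, 83.4, 74.3 and 53.1 CPM in WT saline and 65.4, 48.4, 48.7, 56.3 and 45.4 CPM after dexamethasone, which overlapped, and 105, 92.0 and 113 CPM in KO saline against 81.8, 74.2, 81.3, 62.4 and 59.5 CPM, which did not. Its log2 fold changes were -0.44 ± 0.123 and -0.53 ± 0.133 (edgeR adjusted p = 0.0133 and 0.00865), lost without WT saline 24 h replicate 2 (0.0715) or KO saline 24 h replicate 3 (0.0664). Kcnc1 (Kv3.1) was called in KO, with 159, 184 and 133 CPM in saline and 89.7, 81.0, 113, 67.9 and 72.2 CPM after dexamethasone without overlap (log2 -0.90 ± 0.173; edgeR adjusted p = 0.000774). In WT it had 111, 76.0, 94.6 and 70.3 CPM in saline and 67.4, 62.5, 54.6, 64.0 and 91.4 CPM after dexamethasone, which overlapped (log2 -0.37 ± 0.162; edgeR adjusted p = 0.13). The difference between the genotypes was -0.53 ± 0.239 in log2 and did not pass (edgeR adjusted p = 0.787).

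Kcnh2 encodes ERG1, the channel of the rapid delayed rectifier current of the heart. It was low in quadriceps, with 1.44, 2.26, 3.81 and 2.55 CPM in WT saline at 24 h and 1.08, 0.548, 0.681, 0.848 and 1.04 CPM after dexamethasone. KO libraries had 2.03, 2.41 and 2.59 CPM in saline and 1.23, 1.45, 0.798, 0.470 and 0.837 CPM after dexamethasone. The groups were separate in both genotypes, with falls of 1.57 ± 0.31 and 1.26 ± 0.338 in log2 (edgeR adjusted p = 0.000699 and 0.0132). The KO call was lost without KO saline 24 h replicate 2 or 3 (adjusted p = 0.0523 to 0.0628) and without the ML1716 libraries (0.0528).

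In WT, Kcnd3 and Kcna5 were higher at 3 h and lower at 24 h. Kcnd3 had 0.503, 0.580, 0.302 and 0.456 CPM in WT saline at 24 h and 0.120, 0.078, 0.215, 0.182 and 0.232 CPM after dexamethasone, without overlap (log2 -1.42 ± 0.355; edgeR adjusted p = 0.00637). In KO it had 0.414, 0.394 and 0.347 CPM against 0.060, 0.069, 0.117, 0.282 and 0.353 CPM, which overlapped (log2 -1.26 ± 0.415; edgeR adjusted p = 0.0462). The KO call was lost in 6 of 8 cases when single libraries were left out (any KO saline 24 h library and KO dexamethasone 24 h replicates 1, 2 and 3; adjusted p = 0.0892 to 0.123). Dexamethasone libraries held 2 to 8 counts of Kcnd3 in each genotype. Kcna5 stood at 8.45, 12.7, 8.97 and 9.52 CPM in WT saline and 6.11, 8.15, 5.16, 5.97 and 7.70 CPM after dexamethasone, without overlap. It fell by 0.58 ± 0.15 in log2 in WT (edgeR adjusted p = 0.00766; 0.0705 without WT saline 24 h replicate 2), and its log2 fold change in KO was -0.31 ± 0.166 (edgeR adjusted p = 0.226).

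Kcne3, a single-span subunit that pairs with Kv3.4 in muscle, was lower in WT at 24 h. Kcne3 met the 0.3 CPM limit only through the WT saline libraries at 24 h. They are the reference of this contrast, so the selection favoured a fall. Saline libraries had 0.467, 0.516, 0.576 and 0.683 CPM and dexamethasone libraries 0.060, 0.157, 0.179, 0.182 and 0.116 CPM, or 13 to 21 against 2 to 6 counts. It fell by 1.99 ± 0.363 in log2 (edgeR adjusted p = 0.00028) without overlap of the groups. In KO it had 0.290, 0.307 and 0.386 CPM in saline and 0.270, 0.311, 0.188, 0.141 and 0.176 CPM after dexamethasone, which overlapped (log2 -0.56 ± 0.411; edgeR adjusted p = 0.401). The genotypes differed by 1.43 ± 0.553 in log2 without passing over all genes (edgeR adjusted p = 0.787). The other calls at 24 h were Kcng4 in WT (log2 -0.71 ± 0.238) and Kcnn2 and Kcnq1 in KO (-0.80 ± 0.23 and -0.84 ± 0.27), with adjusted p = 0.044, 0.0211 and 0.0417. The call of Kcng4, a silent subunit, was lost in 7 of 9 cases when single libraries were left out (all but WT saline 24 h replicate 2 and WT dexamethasone 24 h replicate 5; adjusted p = 0.0528 to 0.203). That of Kcnq1 was lost in 7 of 8 (all but KO dexamethasone 24 h replicate 2; 0.0504 to 0.208). It was lost as well by DESeq2 (adjusted p = 0.0595), by limma-voom (0.153), without the filter on low counts (0.0639) and without the ML1716 libraries (0.114). The Kcng4 call was also lost without the filter (0.0734), and that of Kcnn2, the SK2 channel, without KO saline 24 h replicate 2 or 3 (0.0784 to 0.122).

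The library WT dexamethasone 24 h replicate 5, of the ML1716 series, had the highest level of Kcna7, Kcnc1 and Kcng4 in its group, and its Kcng4 was 76.5 CPM where the other 4 libraries had 25.1 to 39.5 CPM. Markers of several non-muscle cell types moved at 24 h. Of 8 fibroblast markers, 4 were lower in WT and 3 in KO, and of 7 tested macrophage markers 5 were lower in WT and 1 in KO. The fibroblast sum was 1366 to 1710 CPM in WT saline and 1037 to 1215 CPM after dexamethasone, and 1395 to 1514 against 994.7 to 1162 CPM in KO. The macrophage sum was 254.9 to 457.5 CPM in WT saline against 201.6 to 236.6 CPM, and 214.1 to 277.5 against 200.1 to 235.5 CPM in KO. Of 7 lymphocyte markers 2 were tested, and 1, Ptprc, was lower in both genotypes. The lymphocyte sum was 6.867 to 12.31 CPM in WT saline against 5.366 to 6.665 CPM without overlap, and 5.826 to 11.31 against 4.454 to 6.96 CPM in KO. Of 10 endothelial markers 1 was higher and 1 lower in WT and 1 lower in KO, of 8 smooth muscle and pericyte markers 1 was higher in WT and 1 lower in KO, and of 5 satellite cell markers 1 was higher in WT. Of 8 muscle fibre markers none was called in WT and 1, Myh2, was lower in KO, with summed levels of 128100 to 168200 against 136800 to 163100 CPM in WT and 126200 to 152500 against 110600 to 138100 CPM in KO. Their part in the falls of the channel genes was not tested.

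**Figure D3:**
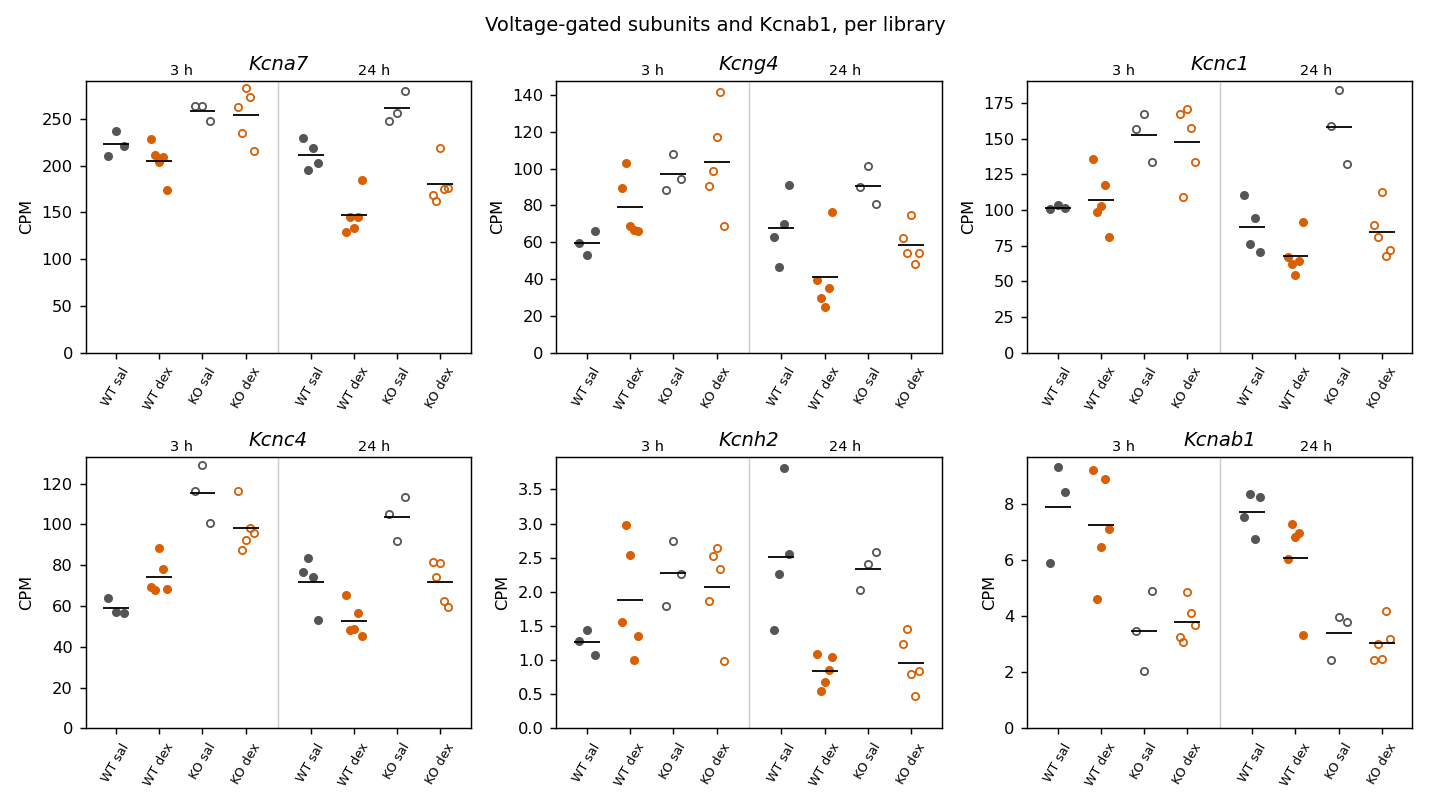
CPM in each library of the 8 groups for Kcna7, Kcng4, Kcnc1, Kcnc4, Kcnh2 and Kcnab1, on axes that start at 0. Points are libraries, filled for WT and open for KO, grey for saline and orange for dexamethasone, and the black line is the group mean; at 24 h the dexamethasone means of the 5 voltage-gated genes lie below saline, and Kcnab1 is lower and Kcnc4 higher in KO than in WT.

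The effect at 24 h was set against that at 3 h, 24 h minus 3 h. In WT 16 members differed, 3 positive and 13 negative, beside 17.0% of all genes (8.85% positive, 8.14% negative). In KO 11 differed, 2 positive and 9 negative, beside 10.7% of all genes (5.13% positive, 5.61% negative), and this count was 7 without KO saline 3 h replicate 1 or 2. The negative ones include Kcnab3 in both genotypes and Kcnt1 and Kcne3 in WT, which met the CPM limit only through groups compared here. For Kcna5 the difference was -2.08 ± 0.224 in WT and -1.75 ± 0.232 in KO (edgeR adjusted p = 2.25e-08 and 1.64e-06). For Kcnj12 it was -1.56 ± 0.18 and -1.11 ± 0.186 (edgeR adjusted p = 9.21e-08 and 6.22e-05), its level at 24 h being 77.8 to 117 CPM after dexamethasone and 75.3 to 113 CPM in saline in WT. For Kcnd3 it was -2.90 ± 0.495 and -2.41 ± 0.523 (edgeR adjusted p = 6.08e-05 and 0.0016). Kcnj8 and Kcnj2 had positive differences, 1.00 ± 0.18 and 1.25 ± 0.234 in WT (edgeR adjusted p = 0.000118 and 0.000211).

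Of the 45 members, 26 were called in at least 1 of the 4 dexamethasone contrasts and 19 in none, where 35.0% of all 13955 genes were called in at least 1. The 26 include Kcnab3, Kcnt1 and Kcne3, whose place among the members rests on groups of these contrasts. The 19 include Kcnj11 (Kir6.2), Kcnma1, the large-conductance BK channel, and Kcnn1. Over the 4 contrasts the log2 fold changes ran from 0.01 ± 0.149 to 0.34 ± 0.151 for Kcnj11, from -0.34 ± 0.134 to 0.23 ± 0.125 for Kcnma1 and from -0.16 ± 0.0973 to 0.21 ± 0.107 for Kcnn1. Effects in WT and KO share no library. Across the 45 members they had a Pearson correlation of 0.8286 (Spearman 0.741) at 3 h and 0.514 (Spearman 0.43) at 24 h, as a description of genes that share libraries and depth within a genotype. The genotype by treatment test called 0 members at 3 h and 0 at 24 h, where 0% and 0.00717% of all genes were called. At an unadjusted p below 0.05 there were 3 members at 3 h and 4 at 24 h, beside 450 and 847 of all 13955 genes. DESeq2 and limma-voom with sample weights called 0 members at both times.

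**Figure D4:**
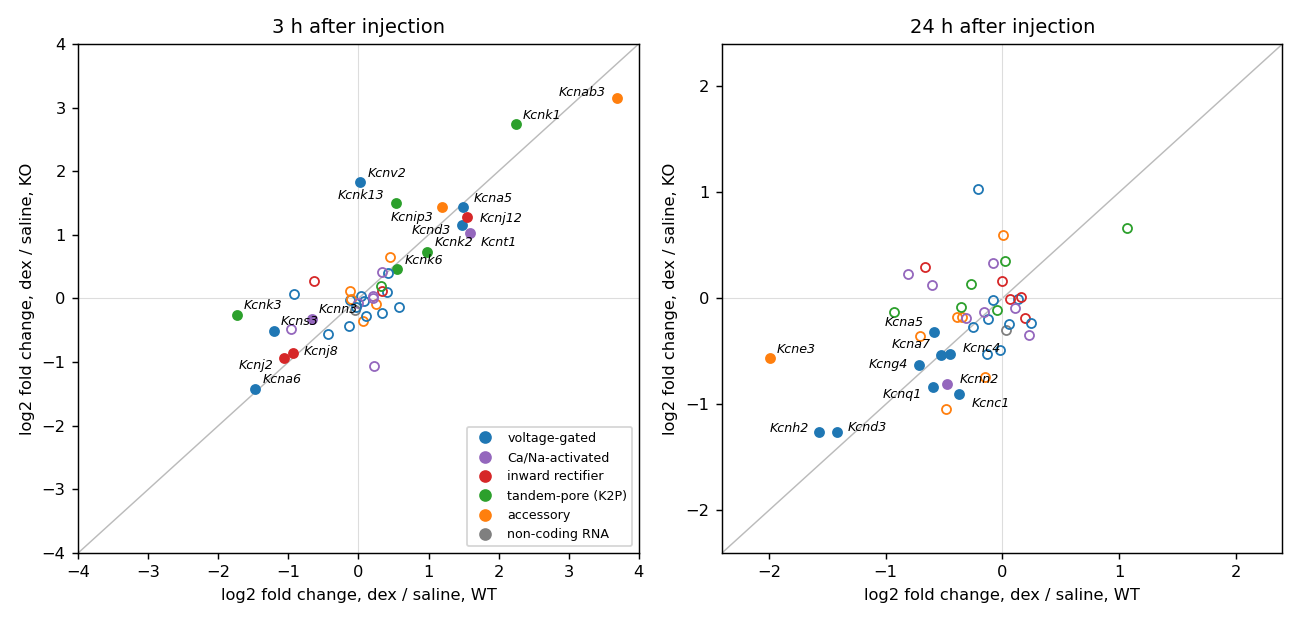
Log2 fold change after dexamethasone in KO (y) against WT (x) for 44 members at 3 h (left) and 24 h (right), coloured by class, filled and named where called in at least 1 genotype. The grey line marks equal values; at 3 h the shared calls lie on both sides of 0 and at 24 h the called members lie below 0 in both genotypes.

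KO and WT also differed without treatment. In saline 10 of 45 members were called, 6 higher and 4 lower in KO, beside 8.94% of all genes (4.01% higher, 4.94% lower), and over all 4 strata 12 were called, 8 higher and 4 lower, beside 20.6% (9.84% higher, 10.8% lower). These comparisons share saline libraries with the dexamethasone contrasts. Kcnc4 was 53.1, 63.9 and 83.5 CPM (lowest, median, highest) in the 7 WT saline libraries and 92.0, 109 and 129 CPM in the 6 KO libraries. It was higher in KO by 0.74 ± 0.103 in log2 in saline and by 0.58 ± 0.0659 over all strata (edgeR adjusted p = 8.29e-06 and 4.76e-08). Kcnc1 was 70.3, 100 and 111 CPM in WT saline and 133, 158 and 184 CPM in KO, a log2 difference of 0.72 ± 0.135 (edgeR adjusted p = 0.000687; 0.56 ± 0.0863 over all strata, 1.59e-05). For both genes the saline libraries of the genotypes did not overlap.

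Kcnab1, a Kv1 beta subunit with a reductase fold, was the gene with the clearest lower level in KO. It had 5.92, 8.25 and 9.33 CPM (lowest, median, highest) in WT saline and 2.05, 3.63 and 4.91 CPM in KO without overlap. The log2 difference was -1.18 ± 0.193 in saline and -1.08 ± 0.124 over all strata (edgeR adjusted p = 0.000131 and 7.98e-08), and no dexamethasone contrast called it. Kcna7 was 196, 219 and 238 CPM in WT saline and 248, 261 and 280 CPM in KO, again without overlap, with a log2 difference of 0.26 ± 0.0829 (edgeR adjusted p = 0.0447). Leaving out any of 11 of the 13 saline libraries (all but WT saline 3 h replicate 2 and WT saline 24 h replicate 1) lost that call (0.0529 to 0.117). Over all strata it was 0.28 ± 0.0531 (edgeR adjusted p = 0.000224).

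Kcnn3 differed over all strata (log2 0.53 ± 0.106; edgeR adjusted p = 0.000427), with 2.44, 2.72 and 4.18 CPM in WT saline and 3.85, 4.34 and 5.56 CPM in KO saline, which overlapped (log2 0.49 ± 0.164; edgeR adjusted p = 0.0559). Among the rest, Kcnma1 (0.40 ± 0.103) was higher and Kcnj15 (-1.17 ± 0.274), Kcns3 (-1.08 ± 0.265) and Kcnk3 (-0.90 ± 0.21) lower in KO saline, with edgeR adjusted p between 0.00536 and 0.0122. Kcng4 was higher over all strata alone (0.51 ± 0.127; edgeR adjusted p = 0.00472; 0.0759 in saline). The Kcnma1 call in saline was lost without KO saline 24 h replicate 1 (0.0626). Over all strata the Kcnk3 call (-0.43 ± 0.137; adjusted p = 0.0235) was lost without any of 5 saline libraries (KO 3 h replicate 2, WT 3 h replicates 1 and 3, KO 24 h replicate 2 and WT 24 h replicate 3; 0.0521 to 0.0607).

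Markers of other cell types differed between the genotypes too. In saline 3 of 6 adipocyte markers (Adipoq, Cfd and Fabp4) were lower in KO, with a list median of -0.67 in log2, and their summed level was 395.4 to 790.2 CPM in WT and 299.6 to 463.1 CPM in KO, which overlapped. Of 5 satellite cell markers, 2 (Pax7 and Calcr) were higher, with sums of 99.59 to 124.6 CPM in WT and 103 to 123.6 CPM in KO. The macrophage marker Lyz2 and the fibroblast marker Dpt were lower. None of the 8 muscle fibre markers was called in saline, and over all strata 2 of them, Acta1 and Tnnt3, were lower in KO. Their part in the channel differences was not tested.

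The non-coding Kcnq1ot1 was not called in any dexamethasone contrast. It was 6.11, 9.63 and 13.8 CPM (lowest, median, highest) in WT saline and 11.4, 12.6 and 15.6 CPM in KO saline, which overlapped, and was higher in KO by 0.44 ± 0.127 in log2 (edgeR adjusted p = 0.0231; 0.33 ± 0.0814 over all strata, 0.00341). The saline call was lost without KO saline 3 h replicate 2, WT saline 3 h replicates 1 or 3, or KO saline 24 h replicate 2 (0.0675 to 0.0976). Kcnq1, which it overlaps on the opposite strand over 2.96% of the exon bases of Kcnq1, was not called between genotypes (-0.09 ± 0.189). All 93092 exon bases of Kcnq1ot1 lie within the span of Kcnq1, mostly outside its exons. These unstranded libraries do not tell the strands apart, so reads from introns of Kcnq1 cannot be told from Kcnq1ot1.

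**Figure D5:**
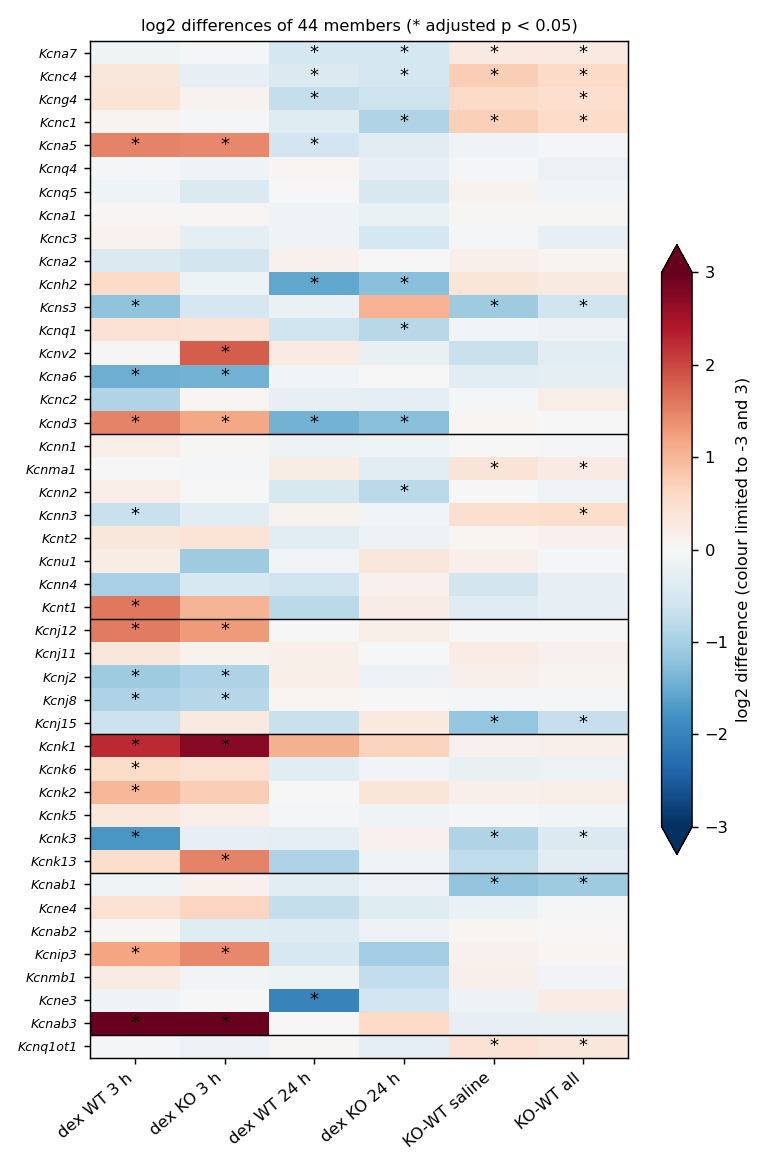
Log2 differences of 44 members (rows, grouped by class from voltage-gated at the top to the non-coding Kcnq1ot1 at the bottom) in 6 contrasts (columns), with an asterisk where the edgeR adjusted p is below 0.05 and colours limited to -3 and 3. The 3 h columns hold calls in both colours and the 24 h columns only blue ones, most of them among the voltage-gated subunits.

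Between saline libraries at 24 h and 3 h, 2 members were called, both lower at 24 h, beside 2.37% of all genes (1.02% higher, 1.35% lower). Kcna1, the Kv1.1 subunit known from motor axons, fell by 0.79 ± 0.159 in log2 (edgeR adjusted p = 0.00654). Over all libraries, a view chosen after its values were seen, it was 5.73 to 11.8 CPM (median 9.19) in the 16 at 3 h and 3.00 to 5.87 CPM (median 4.89) in the 17 at 24 h. Kcnk3 fell by 0.86 ± 0.21 in log2 (edgeR adjusted p = 0.0238), a call lost when any of 6 saline libraries was left out (KO 3 h replicates 1 and 3, WT 3 h replicates 1 and 3, KO 24 h replicates 2 and 3; 0.0505 to 0.0746). None of the 8 Schwann cell and nerve markers was called, with summed levels of 115.6 to 142.9 CPM in saline at 3 h and 95.07 to 130.4 CPM at 24 h. Their part in the fall of Kcna1 was not tested.

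A list of 38 partners of these channels, with 35 tested, covered other ion channels of the muscle membrane, pumps, anchoring proteins and regulators of channel turnover. At 3 h 8 were higher and 4 lower in WT and 7 higher and 5 lower in KO. At 24 h 7 were higher and 10 lower in WT and 2 higher and 10 lower in KO. Of all genes, 14.8% in WT and 17.4% in KO were called at 3 h, and 13.7% and 10.7% at 24 h. Nedd4l, a ubiquitin ligase that marks membrane channels for removal, rose at 3 h by 0.84 ± 0.103 in log2 in WT and 0.45 ± 0.101 in KO (edgeR adjusted p = 1.33e-07 and 0.00125). Klf15, a transcription factor induced by glucocorticoids, rose at 3 h by 1.21 ± 0.176 and 1.29 ± 0.176 (edgeR adjusted p = 3.76e-06 and 1.29e-06).

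Dpp6, the membrane partner of Kv4 channels, was lower at 24 h, as Kcnd3 was. It had 1.26 to 2.25 CPM in WT saline and 0.581 to 1.29 CPM after dexamethasone, and 2.07 to 3.94 against 0.469 to 0.863 CPM in KO, with log2 fold changes of -1.23 ± 0.259 and -2.27 ± 0.278 (edgeR adjusted p = 0.00136 and 1.48e-06). Usp2, a deubiquitinating enzyme, was lower by 0.95 ± 0.0979 and 0.53 ± 0.106 in log2 (edgeR adjusted p = 5.88e-08 and 0.000957). Scn3b, an auxiliary subunit of sodium channels, was higher at 24 h (1.39 ± 0.201 and 0.87 ± 0.222; edgeR adjusted p = 1.46e-05 and 0.0095). In the genotype by treatment tests none of the 35 was called.

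The authors' deposited tables of their own comparisons hold 43 of the 45 members. Their labels do not say which saline libraries served as control, and whether saline of 3 h and 24 h was pooled there was not tested. The fit here used saline of the same time. Values and counts of calls set side by side below may therefore rest on unlike controls. At 3 h in WT the authors' deposited tables give 16 of these an adjusted p below 0.05, 9 higher and 7 lower, beside 19.8% of their genes (9.31% higher, 10.5% lower). At 3 h in KO the authors' deposited tables give 15, 12 higher and 3 lower, beside 23.4% (11.5% higher, 11.9% lower). At 24 h in WT the authors' deposited tables give 10, all lower, beside 16.8% (7.45% higher, 9.39% lower). At 24 h in KO the authors' deposited tables give 15, 14 lower and 1 higher, beside 24.2% (11.5% higher, 12.7% lower). The higher one is Kcnk1, at log2 1.26 (adjusted p = 0.0314) in the authors' deposited table. The edgeR fit, against KO saline at 24 h alone, gave Kcnk1 a log2 fold change of 0.67 ± 0.451 at 24 h in KO (edgeR adjusted p = 0.363). Of the members called here and present in the authors' deposited tables, 15 of 15, 11 of 11, 7 of 7 and 8 of 8 were below 0.05 there in the same direction. Both fits come from the same series of libraries, so this is no independent check. Over all shared genes their log2 fold changes had Pearson correlations of 0.912 (WT 24 h) to 0.967 (KO 3 h). The share of all genes called here that pass there was not computed. Other members below 0.05 there were not called here. At 24 h they include Kcnma1 in KO (log2 -0.395, adjusted p = 0.0101 in the authors' deposited table). Kcna1 is another, at log2 -0.576 in WT and -0.617 in KO (adjusted p = 0.0338 and 0.0214 in the authors' deposited tables).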

How the data were processed

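RNA of 33 quadriceps libraries (TruSeq RNA kit, which keeps no strand, per the labels' protocols) was measured. The authors deposited raw read counts per gene symbol; STAR, HTSeq, limma 3.40.6 and mm10 are named per the submitters' processing notes, the annotation and the strand setting used for counting being not given in the sources used here. They also deposited tables with log2 fold changes and adjusted p-values, per the file headers, used only beside the fit. Lines that name no gene were left out (no feature 24.6 to 33.2%, ambiguous 0.188 to 0.3% of counted reads).

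The fit used edgeR 4.0.16 under R 4.3.3: filterByExpr (13955 genes), TMM scaling (factors 0.932 to 1.09), 1 robust quasi-likelihood model with 8 group means and 11 contrasts, Benjamini-Hochberg adjustment over all genes at 0.05. CPM are TMM-scaled, except in the member rule. The standard error is the size of the log2 value over the square root of F. The test was checked on simulated counts. Exon lengths and overlaps came from GENCODE (GRCm38). Alternatives were RLE scaling, library totals, no filter, DESeq2 1.42.0, limma-voom (limma 3.58.1), no ML1716 libraries, and each library left out. The 55 pairs of libraries within a group differed beyond sampling noise (lowest chi-square per degree of freedom 10.9).

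The members, lists and tests were chosen with earlier results of these data known. Named genes were, by smallest adjusted p, up to 14 members called in a dexamethasone contrast, 5 called in a genotype contrast and 5 in a time contrast, with the most abundant of each class per exon length and 6 partners; others named were chosen after their values were seen. Replicate numbers follow the order of listing. By name, 1 member is not reported here, though the counts include it.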

Additional observations from a re-analysis of the deposited data

Results flagged for a closer look

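A single library stood apart within its group in 3 of 90 groups of 4 or 5 libraries tested over the 18 named members, where chance flags about 1 in 20. Kcna7 was highest in KO dexamethasone 24 h replicate 3 at 218.9 CPM, with the other 4 libraries at 162.1 to 176.3 CPM. Kcnab3 was lowest in WT dexamethasone 24 h replicate 2 at 0.0783 CPM, with the others at 0.181 to 0.215 CPM. Kcnj2 was lowest in WT dexamethasone 24 h replicate 5, of the ML1716 name series, at 74.6 CPM, with the others at 101.2 to 106.2 CPM.

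The effect of dexamethasone differed between 24 h and 3 h by a test of the difference itself (edgeR, log2, 24 h minus 3 h) for 27 effects of 19 members. Genes that were higher early had negative values. For Kcnab3 the difference was -3.68 in WT and -2.55 in KO, for Kcnd3 -2.90 and -2.41, for Kcna5 -2.08 and -1.75, for Kcnip3 -1.68 and -2.48, and for Kcnj12 -1.56 and -1.11. Genes that were lower early had positive values: Kcnj2 1.25 in WT and 0.75 in KO, Kcnj8 1.00 and 0.86, and Kcnk3 1.47 in WT. In WT further negative values were those of Kcnt1 (-2.39), Kcnh2 (-2.15), Kcne3 (-1.89), Kcne4 (-1.16), Kcng4 (-1.12), Kcnk6 (-0.91) and Kcnc4 (-0.77). In KO they were those of Kcnk1 (-2.07), Kcnc1 (-0.86) and Kcna7 (-0.51). Kcnq1 had -1.02 in WT and -1.23 in KO. With single libraries left out, calls were lost in WT for Kcng4 and Kcnq1 (7 of 17 cases each), Kcne4 (6), Kcnip3 (2) and Kcne3 (1), and in KO for Kcnk1 (11 of 16 cases), Kcnab3 (10), Kcnj2 (8), Kcna7 (6), Kcnc1 (2) and Kcnq1 (2), at edgeR adjusted p between 0.0501 and 0.333. A call in 1 genotype does not show that the genotypes differ in this respect, which was not tested.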

How the results depend on the processing

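No paired analysis was possible because no number in the labels ties libraries across groups. Over the counts of called members, 65 of 66 values under other scalings, filters, tools or without the ML1716 libraries stayed within 1.5 times the reported count, and 147 of 158 with 1 library left out. The exception was limma-voom, which called 4 members between saline at 24 h and 3 h instead of 2. With 1 library left out the counts ran from 9 to 15 at 3 h in WT, from 3 to 8 at 24 h in KO, from 7 to 13 for the time difference in KO and from 1 to 2 for saline at 24 h against 3 h. No single value turned its direction. Of 560 values of called members under the other alternatives 18 lost the call, and of 1344 with 1 library left out 143 did. Under an alternative other than a left-out library the calls lost were those of Kcnq1 at 24 h in KO under 4 settings (adjusted p = 0.0595 to 0.153), Kcnd3 at 24 h in KO (0.0639) and Kcng4 at 24 h in WT (0.0734) without the filter, Kcnk6 at 3 h in WT by library totals (0.0953), Kcnh2 at 24 h in KO without the ML1716 libraries (0.0528), Kcnk3 in KO over all strata (0.0795) and the time difference of Kcne4 in WT (0.0682) without them, Kcna7 in KO saline by library totals (0.0782) or without the filter (0.062), and the time differences in KO of Kcnab3, Kcnj2 and Kcnk1 without the filter or the ML1716 libraries (0.0505 to 0.13). The causes were not tested. Counts under about 10 per library in Kcnab3, Kcnd3 and Kcne3 limit their fold changes, and intervals on counts cover counting error only.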
